A study of Mus musculus with 19 samples.

Results

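RAGE, the product of Ager, is a cell surface receptor whose protein ligands include members of the S100 and HMGB families. The list followed here holds 10 of these ligand genes: S100a1, S100a4, S100a6, S100a8, S100a9, S100a10, S100a11, S100a13, Hmgb1 and Hmgb2. A gene was measured through probe sets that the array annotation assigns to that gene symbol alone, and of several probe sets for a gene, the brightest on average was used. Of the 10 genes, 8 had such a probe set, out of 18193 genes in all. Hmgb1 and S100a11 had none, because every probe set listing them also lists another symbol, so no level is given for either gene. S100a4 was over log2 4 on 0 of 19 arrays and was not tested, which left 7 tested genes among 8515.

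S100 proteins are small calcium-binding proteins that act inside cells and, once released, on receptors of neighbouring cells. S100a8 and S100a9 form the heterodimer calprotectin, which is abundant in neutrophils and is also made by monocytes. HMGB proteins bend DNA in the nucleus and serve as alarm signals when they leave damaged or activated cells. RAGE and the Toll-like receptors both read such signals, and MyD88 is the adaptor protein through which most Toll-like receptors pass them on.

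Liver RNA of 19 male mice on the C57BL/6 background, 10 to 12 weeks old, was measured on Affymetrix expression arrays, with values on a log2 scale. The groups were wild type (WT, n = 5), Ager-null (Ager_null, n = 6), Myd88-null (Myd88_null, n = 4) and null for both genes (Ager_Myd88_null, n = 4). Every mouse had 85% of the liver removed and was killed 2 h later, so the comparisons are between genotypes after resection, and no unresected liver was analysed here. The labels do not say how the null alleles were made, and the ligands were measured as RNA only.

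The libraries were checked against their labels first. Myd88 had a mean level of 5.55 ± 0.29 (SD, n = 5) in WT and 5.91 ± 0.38 (SD, n = 6) in Ager_null, against 3.49 ± 0.34 (SD, n = 4) in Myd88_null and 3.45 ± 0.58 (SD, n = 4) in Ager_Myd88_null. The Ager probe sets were below the filter in every group, with group means of 3.10 to 3.37, and check nothing. The extraction text speaks of glomeruli while the tissue label says liver. The 14 measured hepatocyte markers had a median level of 14.2 and all 14 were over log2 4 on every array, whereas the 12 measured kidney markers had a median of 2.51 and 0 of them were over log2 4 on every array. Myd88_null replicate 4 stood apart, with a median correlation of 0.965 to the other arrays, against at least 0.979 for each of the rest. Arrays also carry an S number whose meaning is not stated. All 6 Ager_null arrays lie in S 13 to 20 with 1 WT and 1 Myd88_null array, and all 4 Ager_Myd88_null arrays lie in S 1 to 12, so for these 2 groups genotype and S range cannot be told apart.

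Of the ligand genes, 8 lie on mouse chromosome 3, Hmgb1 on chromosome 5 and Hmgb2 on chromosome 8. S100a1 and S100a13 face away from each other, with 104 bases between the starts used for their promoter windows. The annotated span of S100a13 begins at 90514233, below the upper end of S100a1 at 90514330, so the genes overlap. The 104 bases lie within the span of S100a13. S100a8 and S100a9 are direct neighbours. Promoter windows of 300 bases, from 250 before to 50 after each annotated start, were available for 9 of the 10 genes in RefSeq (GRCm38.p6), and not for S100a10. The 100 bases around or before the starts of S100a8, S100a9 and S100a4 are shown because these are the 3 genes whose windows hold a TATA box (TATAAA, in capitals). The 104 bases between the window starts of S100a1 and S100a13 are shown because the levels of these genes varied together, and they hold no TATAAA.
S100a8, chr3:90668971-90669070, plus strand: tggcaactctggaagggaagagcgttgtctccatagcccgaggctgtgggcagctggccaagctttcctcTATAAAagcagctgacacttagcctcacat
S100a9, chr3:90695716-90695815, minus strand: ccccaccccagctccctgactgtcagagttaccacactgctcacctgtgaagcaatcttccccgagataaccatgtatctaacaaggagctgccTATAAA
S100a4, chr3:90603670-90603769, plus strand: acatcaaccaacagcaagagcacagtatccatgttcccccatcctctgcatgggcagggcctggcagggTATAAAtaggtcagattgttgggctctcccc
S100a13 and S100a1, chr3:90514331-90514434, plus strand: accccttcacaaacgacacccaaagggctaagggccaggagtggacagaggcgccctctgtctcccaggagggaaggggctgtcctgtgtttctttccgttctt

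The TATAAA starts at position -30 in S100a8, at -31 in S100a4 and at position 1, the annotated start itself, in S100a9. It occurs in 13.6% of all 32851 promoter windows of the same length. Other motifs were searched on both strands. The AP-1 letters TGANTCA were found for 1 gene, S100a11, and in 7.81% of all windows. The C/EBP letters TTGCNNNAA were found for 0 of the 9 genes and in 9.56% of all windows. An NF-kB pattern, GGG and CC with any 5 bases between them, was found for 7 of the 9 genes and in 50.8% of all windows, so this pattern is a common one. S100a8 and S100a9 were the 2 genes without it. The 104 bases between the window starts of S100a1 and S100a13 hold it, and since the windows of these genes overlap, the same letters count for both. A match in letters is a description of the sequence only.

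**Figure D1:**
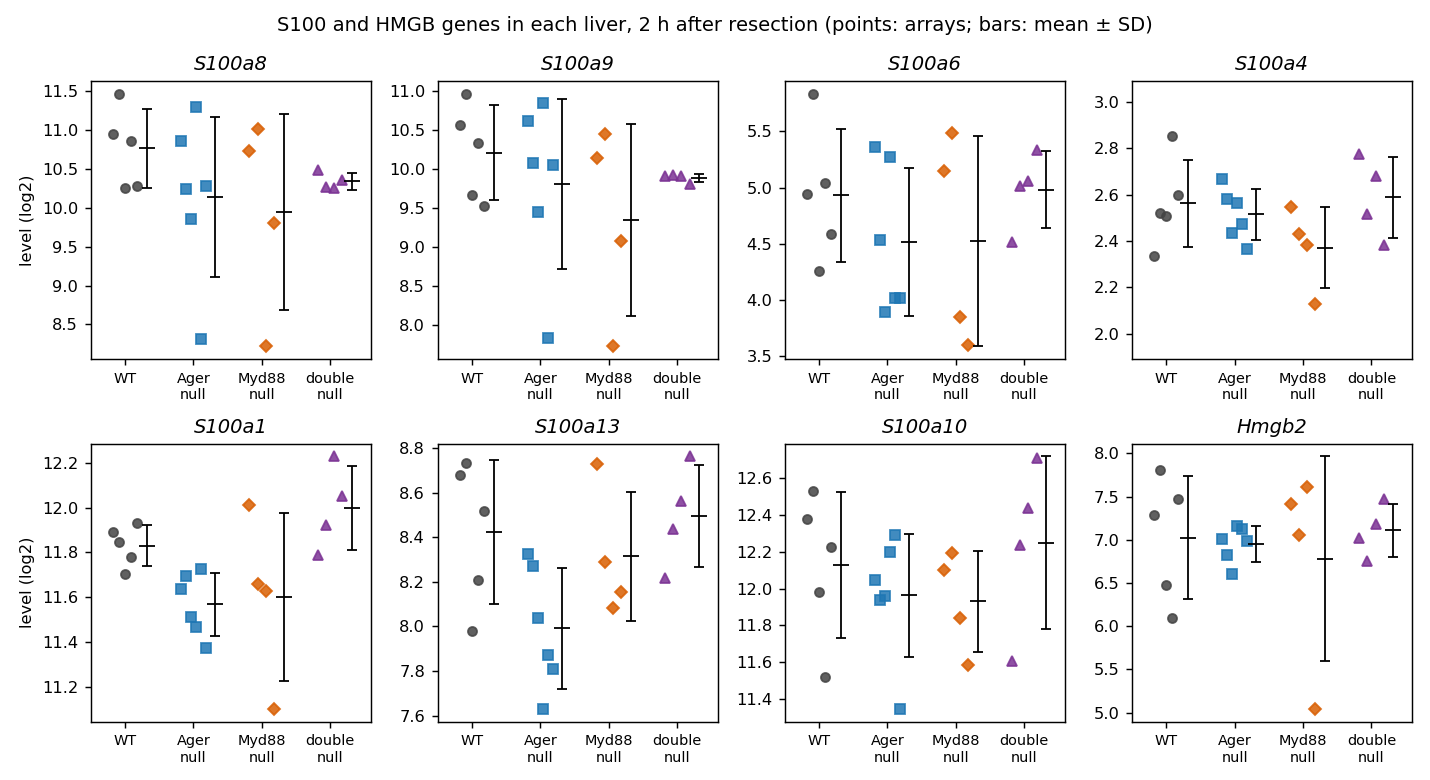
Level (log2) of the 8 measured ligand genes in each of 19 livers, 1 panel per gene and 1 point per array, with the mean and SD of each genotype as a bar to the right of its points. The vertical scale differs between panels. S100a8 spans 7.91-fold within Ager_null and 6.94-fold within Myd88_null, while the 4 Ager_Myd88_null livers lie within 1.17-fold, and S100a1 in Ager_Myd88_null lies above all Ager_null livers.

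None of the 7 tested ligand genes was called between genotypes. With limma, adjusted over all tested genes by the Benjamini-Hochberg method at a threshold of 0.05, 0 of 7 were called in each of the 7 comparisons. Among all tested genes, 1.26% were called for Ager_null against WT, 0.399% for Myd88_null against WT and 0.317% for Ager_Myd88_null against WT. The shares were 2.44% for Ager_Myd88_null against Ager_null, 0.153% for Ager_Myd88_null against Myd88_null, 1.26% for Ager_null against Myd88_null and 2.41% for the interaction. The interaction is the difference between Ager_Myd88_null and Ager_null minus the difference between Myd88_null and WT. Beside shares this low, 0 of 7 does not set the ligand genes apart from the rest.

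At an unadjusted p under 0.05, 1 of the 7 genes passed for Ager_null against WT, where 21.6% of all tested genes did. The counts were 2 of 7 for Ager_Myd88_null against Ager_null (22.7% of all genes), 1 of 7 for Ager_Myd88_null against Myd88_null (16.1%) and 2 of 7 for the interaction (27.2%). They were 0 of 7 for Myd88_null against WT (19.6%), for Ager_Myd88_null against WT (8.57%) and for Ager_null against Myd88_null (15.9%). S100a1 and S100a13 make up all of these counts.

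The differences mostly shared a sign. All 7 genes had a lower mean in Ager_null than in WT, with a median log2 difference of -0.40 beside 0.02 over all tested genes. All 7 also had a lower mean in Myd88_null than in WT, with a median of -0.24 beside 0.06. These comparisons use the same WT livers, so their signs are not independent. In Ager_Myd88_null 5 genes had a higher and 2 a lower mean than in WT, with a median of 0.07 beside 0.07 over all genes. Against Ager_null and against Myd88_null all 7 had a higher mean in Ager_Myd88_null, with medians of 0.29 beside 0.04 and 0.40 beside -0.0012 over all genes. The sign against Myd88_null depended on the S range. Within S 1 to 6, with 2 livers of each, all genes but S100a1 (0.02) were lower in Ager_Myd88_null, at -0.55 to -0.18. Within S 7 to 12, with 1 Myd88_null liver, all but Hmgb2 (-0.28) were higher, at 0.51 to 2.13. The interaction was positive for all 7, with a median of 0.66 beside -0.02. For Hmgb2 this sign depended on the probe set, since a second one gave -0.14 ± 0.53 (SE). Quantile normalization and median centring left the counts of 7 of 7 as they were, while the 5 genes higher in Ager_Myd88_null than in WT became 4 and 2. With the mean of all probe sets of a gene, 6 of 7 were lower in Ager_null and 5 of 7 in Myd88_null than in WT. With the replicate number as a block, 5 of 7 were higher in Ager_Myd88_null than in Ager_null. Leaving out 1 liver gave 5 to 7 of 7 for each count that was 7 of 7, and 1 to 5 of 7 higher in Ager_Myd88_null than in WT, the lowest without Ager_Myd88_null replicate 4. With the S range as a block, 4 of 7 were lower in Ager_null than in WT, 3 of 7 were higher in Ager_Myd88_null than in Ager_null, and 6 of 7 had a positive interaction. This block ties Ager_null to the other livers only through WT replicate 5 and Myd88_null replicate 4, the array that stood apart. The genes it turned for Ager_null against WT were S100a6, S100a9 and Hmgb2, at 0.20, 0.03 and 0.58. Within S 13 to 20, the 6 Ager_null livers differed from the single WT liver by -0.07, 0.29 and -0.52 for these genes. Several of the 7 genes covary from liver to liver, as shown further on, so the count of signs is not 7 separate observations.

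**Figure D2:**
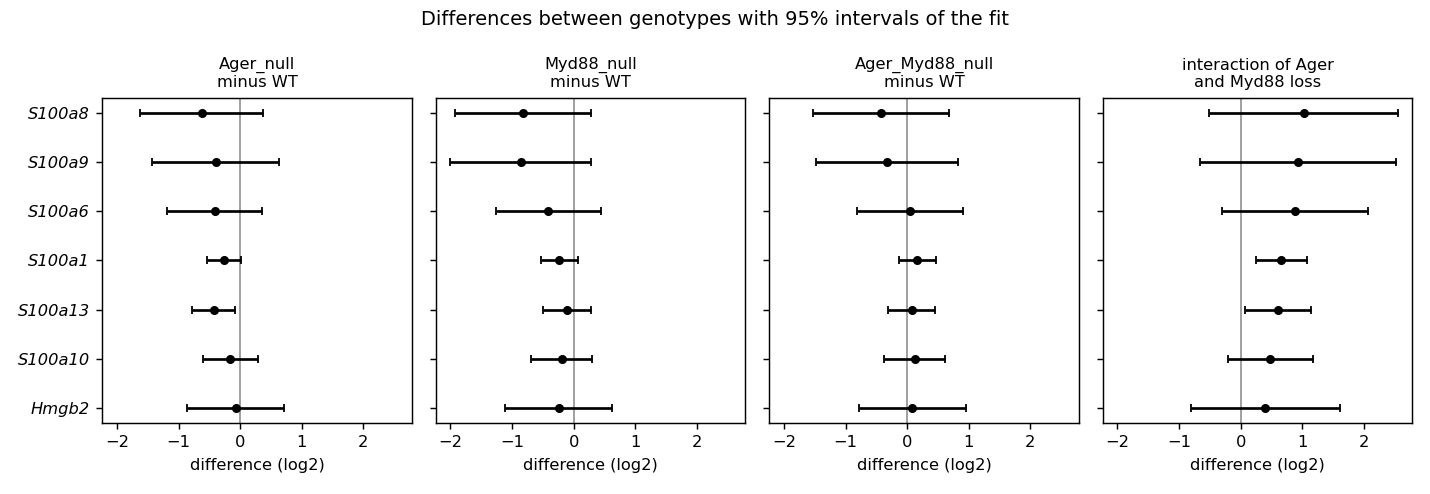
Difference in log2 level between genotypes for the 7 tested ligand genes, with the 95% interval of the fit as a horizontal bar and a grey line at no difference. Every estimate is below 0 in the first and second panels and above 0 in the interaction panel, and the intervals of S100a8, S100a9, S100a6, S100a10 and Hmgb2 include 0 in all 4 panels.

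The calprotectin genes had the widest spread of the S100 genes. S100a8 in WT had levels of 10.95, 11.46, 10.25, 10.86 and 10.28. In Ager_null it ran from 8.31 to 11.30 with a median of 10.26. In Myd88_null the levels were 10.72, 11.01, 8.22 and 9.80, and in Ager_Myd88_null they were 10.48, 10.27, 10.25 and 10.35. Ager_null replicate 5 and Myd88_null replicate 3 were the low livers, and all 4 groups overlap.

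The distance between the highest and lowest S100a8 level corresponded to 7.91-fold in Ager_null, 6.94-fold in Myd88_null, 2.31-fold in WT and 1.17-fold in Ager_Myd88_null. The mean of S100a8 was 10.76 ± 0.51 (SD, n = 5) in WT and 10.14 ± 1.03 (SD, n = 6) in Ager_null, a log2 difference of -0.62 ± 0.48 (SE) with a limma adjusted p of 0.458. In Myd88_null it was 9.94 ± 1.26 (SD, n = 4), a difference from WT of -0.82 ± 0.53 (SE) with a limma adjusted p of 0.394. In Ager_Myd88_null it was 10.34 ± 0.10 (SD, n = 4), a difference from WT of -0.42 ± 0.53 (SE) with a limma adjusted p of 0.867. The 95% intervals were wide, from -1.93 to 0.29 for Myd88_null against WT, so differences of more than 2-fold in S100a8 could not be told from none.

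Both low livers weigh on these means. Without Ager_null replicate 5, the S100a8 difference between Ager_null and WT was -0.26, and without Myd88_null replicate 3 that between Myd88_null and WT was -0.25. The S100a8 interaction was 1.02 ± 0.73 (SE; limma adjusted p = 0.368), and without Myd88_null replicate 3 it was 0.45. Within S ranges, S100a8 in Myd88_null differed from WT by -0.34 in S 1 to 6, by -2.34 in S 7 to 12, where the single Myd88_null liver is replicate 3, and by -0.48 in S 13 to 20.

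S100a9, the partner of S100a8, followed the same livers. Its levels were 10.56, 10.97, 9.67, 10.33 and 9.53 in WT, 10.15, 10.44, 7.73 and 9.08 in Myd88_null, and 9.91, 9.92, 9.91 and 9.81 in Ager_Myd88_null. In Ager_null they ran from 7.83 to 10.85 with a median of 10.06. The same livers, Ager_null replicate 5 and Myd88_null replicate 3, were lowest, and the groups overlap. S100a9 differed from WT by -0.40 ± 0.49 (SE; limma adjusted p = 0.667) in Ager_null, by -0.86 ± 0.55 (SE; limma adjusted p = 0.389) in Myd88_null and by -0.33 ± 0.55 (SE; limma adjusted p = 0.910) in Ager_Myd88_null. Without Ager_null replicate 5 the S100a9 difference between Ager_null and WT was -0.0015, and blocking on the S range gave 0.03. Without Myd88_null replicate 3 that between Myd88_null and WT was -0.32. The SD of S100a9 was 0.053 in Ager_Myd88_null against 1.09 in Ager_null, 1.23 in Myd88_null and 0.61 in WT. Whether the spread differed between groups was not tested.

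Across the 19 livers, S100a8 and S100a9 varied together. To leave out differences between genotypes, each level was taken as a deviation from its group mean, and livers were permuted within groups (permutation test, 100000 resamples, two-sided, adjusted over 21 pairs of ligand genes). For S100a8 and S100a9 Pearson's r was 0.99 (permutation p = 1e-05, the smallest these resamples can give, adjusted p = 0.00021) and Spearman's rho was 0.96 (permutation p = 3e-05, adjusted p = 0.00063). Without the 2 livers farthest from the median of the S100a8 deviations, Ager_null replicate 5 and Myd88_null replicate 3, r was 0.98. Within the S ranges r was 0.98 in S 1 to 6, 0.99 in S 7 to 12 and 0.99 in S 13 to 20, over 6, 5 and 8 arrays.

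**Figure D3:**
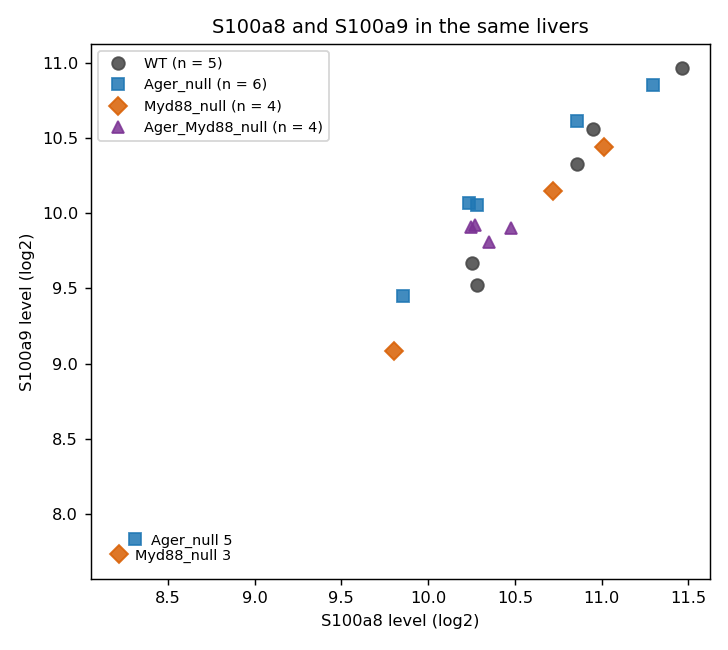
S100a9 level against S100a8 level (both log2), 1 point per liver, with shape and colour giving the genotype. The points lie along a single band in every genotype, with Ager_null replicate 5 and Myd88_null replicate 3 at its low end (8.31 and 8.22 for S100a8).

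S100a6, a calcium sensor found in proliferating and mesenchymal cells among others, was close to the filter, with 16 of 19 arrays over log2 4. Its levels were 4.95, 5.84, 4.25, 5.04 and 4.59 in WT, 5.15, 5.49, 3.85 and 3.602 in Myd88_null and 4.52, 5.01, 5.06 and 5.34 in Ager_Myd88_null. In Ager_null they ran from 3.89 to 5.36 with a median of 4.28. The lowest values were in Ager_null and Myd88_null, whose other livers overlap with WT. S100a6 differed from WT by -0.42 ± 0.37 (SE; limma adjusted p = 0.528) in Ager_null and by -0.41 ± 0.41 (SE; limma adjusted p = 0.588) in Myd88_null. Leaving out 1 liver gave -0.59 to -0.19 for Ager_null and -0.73 to -0.10 for Myd88_null. Blocking on the S range turned the difference for Ager_null to 0.20. The deviations of S100a6 correlated with those of S100a8 (r = 0.75, permutation p = 0.00241, adjusted p = 0.0152; rho = 0.76, permutation p = 0.00453, adjusted p = 0.0228) and of S100a9 (r = 0.76, permutation p = 0.00227, adjusted p = 0.0152; rho = 0.79, permutation p = 0.00261, adjusted p = 0.0228). Without the 2 livers farthest from the median of the S100a6 deviations, Myd88_null replicates 2 and 4, r was 0.76 with S100a8 and 0.76 with S100a9.

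The genes whose deviations from the group means had the highest r with those of the calprotectin genes were sought among all tested named genes. For S100a8 these were Il1r2, the decoy receptor for IL-1 (r = 0.89 over 19 arrays), Klf6, a zinc finger transcription factor (r = 0.87), and Crlf3 (r = 0.80). Without Ager_null replicate 5 and Myd88_null replicate 3 the values were 0.86, 0.77 and 0.61. The r of their levels with S100a8, which includes differences between groups, was lower, at 0.78, 0.66 and 0.69. For S100a9 the same 3 genes came first, with r of 0.87, 0.84 and 0.79 for deviations and 0.81, 0.56 and 0.65 for levels. Il1r2 was also among the 3 closest to S100a6 (r = 0.80), with Vps25 (r = 0.81) and Ddx39a (r = 0.80), and the r of their levels was 0.64, 0.82 and 0.76. These genes were picked as the highest correlations, so the values are descriptions with no test.

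Il1r2 is also on the list of neutrophil markers, of which 18 were measured and 4 passed the filter (Lcn2, Il1r2, Fpr2 and Hdc). Il1r2 was 3.84 in Ager_null replicate 5 and 3.58 in Myd88_null replicate 3, the lowest of all arrays, and its highest level, 6.12, was in Ager_null replicate 4, the liver with the highest S100a8 of that group. Clec4d, a lectin receptor of myeloid cells that was below the filter, was also lowest in these livers, at 2.48 and 2.74, and highest in Ager_null replicate 4, at 4.37. Lcn2, a secreted iron-scavenging protein that hepatocytes also make, was 4.98 in Ager_null replicate 5 but 7.62 in Myd88_null replicate 3, within an overall range of 4.98 to 8.63. Fpr2 was 4.69 in Ager_null replicate 5, within a group range of 4.12 to 5.36, and 3.73 in Myd88_null replicate 3, within a group range of 3.28 to 3.90, so it was not lowest in either liver. Hdc, the histamine-forming enzyme, was not lowest in them over all arrays either, at 4.49 and 4.66. The granule genes Camp, Ltf, Ngp, Mpo, Elane and Prtn3 were all below log2 4 on every array, between 1.85 and 3.50.

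Summed over the 18 neutrophil markers, the level ran from 7.90 to 8.50 in WT, 7.52 to 9.43 in Ager_null, 7.68 to 8.40 in Myd88_null and 7.65 to 7.80 in Ager_Myd88_null. Levels were summed before the log2 was taken, so the brightest markers weigh most. Lcn2, which hepatocytes also make, alone reached 8.63 in Ager_null replicate 4. Of these 18 markers, 14 were below the filter. In liver tissue, fewer cells of a type and less RNA per cell cannot be told apart, and the part of neutrophil number in the S100a8 values was not tested. Of the 4 tested markers, 1 was called: Fpr2, a formyl peptide receptor, was higher in Ager_null than in Myd88_null by 0.93 ± 0.22 (SE; limma adjusted p = 0.0383). The Fpr2 call was lost in 11 of 30 alternatives, with a limma adjusted p up to 0.156. That highest value came with levels under log2 4 set to 4, where the difference was 0.57. Every Myd88_null level of Fpr2 was under log2 4, at 3.28 to 3.90, so the call sets Ager_null against levels under the filter.

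Of 13 tested Kupffer cell and macrophage markers 0 were called by limma in any comparison. At an unadjusted p under 0.05, 0 to 3 passed per comparison, where 8.57% to 27.2% of all tested genes did. In Ager_null 11 of the 13 had a lower mean than in WT, with a median difference of -0.23 beside 0.02 over all genes. In Myd88_null 12 of 13 had a lower mean than in WT, with a median of -0.67 beside 0.06, and in Ager_Myd88_null 9 of 13 did, with a median of -0.09 beside 0.07. Ager_null had the higher mean than Myd88_null for 12 of 13, with a median of 0.56 beside -0.05. The interaction was positive for 12 of 13, with a median of 0.88 beside -0.02. Their summed level ran from 13.18 to 13.93 in WT, 12.86 to 13.89 in Ager_null, 11.53 to 13.69 in Myd88_null and 13.29 to 13.95 in Ager_Myd88_null. The part of these cells in the ligand values was not tested.

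**Figure D4:**
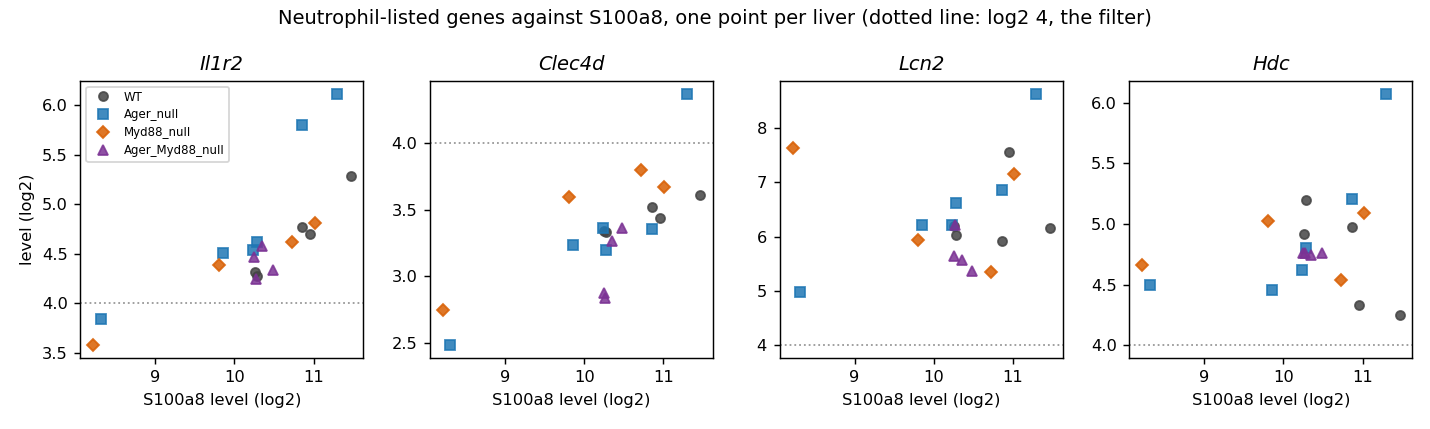
Level (log2) of 4 genes from the neutrophil list against the S100a8 level in the same liver, 1 point per array, with the filter of log2 4 as a dotted line. Il1r2 and Clec4d are lowest in the 2 livers with the lowest S100a8 (Il1r2 3.84 and 3.58), while Lcn2 is at 7.62 in one of them and Hdc is at 4.49 and 4.66 in a range from 4.25 to 6.07.

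S100a1, a calcium sensor best known from heart and skeletal muscle, was the ligand gene closest to the threshold. Its levels were 11.89, 11.85, 11.70, 11.78 and 11.93 in WT, 12.01, 11.66, 11.63 and 11.10 in Myd88_null and 11.79, 11.92, 12.23 and 12.05 in Ager_Myd88_null. In Ager_null they ran from 11.37 to 11.73 with a median of 11.57. The 4 Ager_Myd88_null livers all lay above the 6 Ager_null livers, while Myd88_null spanned both. S100a1 was the 1 ligand gene of 7 whose groups did not overlap in that comparison, where 8.39% of all tested genes did not overlap. In the other pairwise comparisons 0 of 7 were free of overlap, beside 3.7% of all genes for Ager_null against WT, 4.52% for Myd88_null against WT and 3.81% for Ager_Myd88_null against WT. The share was 5.91% for Ager_Myd88_null against Myd88_null and 3.92% for Ager_null against Myd88_null.

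In Ager_Myd88_null S100a1 was 0.43 ± 0.14 (SE) above Ager_null (limma adjusted p = 0.0951) and 0.40 ± 0.15 (SE) above Myd88_null (limma adjusted p = 0.253). The difference from WT was -0.26 ± 0.13 (SE; limma adjusted p = 0.245) in Ager_null, -0.23 ± 0.14 (SE; limma adjusted p = 0.377) in Myd88_null and 0.17 ± 0.14 (SE; limma adjusted p = 0.794) in Ager_Myd88_null. The interaction was 0.66 ± 0.20 (SE), with a 95% interval from 0.24 to 1.08 and a limma adjusted p of 0.0649. A second S100a1 probe set, which correlated with the first at r = 0.96 over 19 arrays, gave an interaction of 1.08 ± 0.40 (SE; limma adjusted p = 0.116).

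Without Myd88_null replicate 4, S100a1 in Myd88_null differed from WT by -0.07, and Ager_Myd88_null exceeded Myd88_null by 0.23. Whether S100a1 was called depended on the handling of the arrays. With arrays weighted by their quality, the S100a1 interaction was 0.60 (limma adjusted p = 0.0148), and without Myd88_null replicate 1, the highest S100a1 level of its group, it was 0.80 (limma adjusted p = 0.00918). These settings called 16.2% and 20.4% of all tested genes for the interaction, against 2.41% in the main fit. With the S range as a block the S100a1 interaction was 0.39 (limma adjusted p = 0.539). Within S ranges, S100a1 in Ager_Myd88_null exceeded Myd88_null by 0.02 in S 1 to 6 and by 0.51 in S 7 to 12, where there was 1 Myd88_null liver.

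S100a13, which takes part in the release of proteins that lack a signal sequence, had levels of 8.68, 8.73, 7.98, 8.21 and 8.52 in WT and 8.22, 8.44, 8.56 and 8.76 in Ager_Myd88_null. In Myd88_null the levels were 8.73, 8.29, 8.08 and 8.15, and in Ager_null they ran from 7.63 to 8.33 with a median of 7.96. Ager_null was the low group, overlapping with each of the others. The difference between Ager_null and WT was -0.43 ± 0.17 (SE), with a 95% interval from -0.78 to -0.08 and a limma adjusted p of 0.146. Ager_Myd88_null was 0.50 ± 0.18 (SE) above Ager_null (limma adjusted p = 0.114), and the interaction was 0.61 ± 0.26 (SE; limma adjusted p = 0.141). Without Myd88_null replicate 1 the S100a13 interaction was 0.75 (limma adjusted p = 0.0426), and with array weights 0.68 (limma adjusted p = 0.0495). These settings called 20.4% and 16.2% of all tested genes for the interaction. Within S 13 to 20 the difference between the 6 Ager_null livers and the single WT liver was -0.53.

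S100a1 and S100a13, whose window starts have the 104 bases printed above between them, varied together. The r of their deviations was 0.61 (permutation p = 0.00651, adjusted p = 0.0228) and rho was 0.69 (permutation p = 0.00357, adjusted p = 0.0228), and without the 2 livers farthest from the median of the S100a1 deviations r was 0.60. Within S ranges r was 0.82, 0.71 and 0.53. S100a1 did not stand alone in this, since S100a10 correlated with it at r = 0.59 (permutation p = 0.00296, adjusted p = 0.0152) and rho = 0.57 (permutation p = 0.0226, adjusted p = 0.0677). With S100a8, S100a1 had an r of 0.01 (permutation p = 0.973, adjusted p = 0.973) and a rho of 0.03 (permutation p = 0.922, adjusted p = 0.922).

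**Figure D5:**
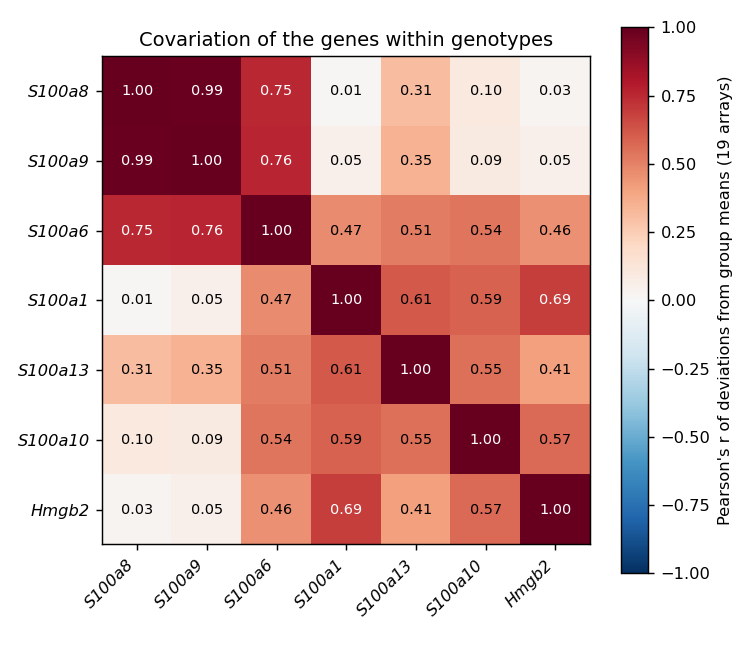
Pearson's r between the deviations from group means of each pair of the 7 tested ligand genes over 19 arrays, with red for positive and blue for negative values. S100a8, S100a9 and S100a6 form a block with r of 0.75 to 0.99, and S100a8 and S100a9 have r of 0.01 to 0.35 with S100a1, S100a13, S100a10 and Hmgb2.

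Of the 21 pairs, 8 passed an adjusted permutation p under 0.05 by r, 6 by rho and 6 by both. S100a6 and S100a10 passed by both (r = 0.54, permutation p = 0.0167, adjusted p = 0.0466; rho = 0.58, permutation p = 0.0128, adjusted p = 0.0448), with r of 0.47 without the 2 farthest livers. The pair of S100a1 and Hmgb2 passed by r (r = 0.69, permutation p = 0.0177, adjusted p = 0.0466) and not by rho (rho = 0.51, permutation p = 0.0301, adjusted p = 0.0791), and without Myd88_null replicates 4 and 1 its r was 0.36, so it rests on those livers. S100a10 and Hmgb2 passed by both (r = 0.57, permutation p = 0.00361, adjusted p = 0.0152; rho = 0.64, permutation p = 0.00542, adjusted p = 0.0228), with r of 0.74 without the 2 farthest livers. All pairs come from the same arrays, so whatever an array adds to many genes enters each of them.

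By the r of the deviations from group means, the genes most like S100a1 were Coa3, an assembly factor of cytochrome c oxidase (r = 0.97), Mrpl17, a protein of the mitochondrial ribosome (r = 0.94), and Atp5j2, a subunit of ATP synthase (r = 0.94), with r of 0.91, 0.94 and 0.95 for the levels. Those most like S100a13 were the mitochondrial enzyme Auh (r = 0.89), the phosphohistidine phosphatase Phpt1 (r = 0.88) and the ribosomal protein gene Rplp2 (r = 0.87), with r of 0.92, 0.92 and 0.87 for the levels. For S100a10 the genes were Ndufaf7, an assembly factor of respiratory complex I (r = 0.94), Psmd14, a proteasome subunit (r = 0.94), and Hpf1 (r = 0.92), with r of 0.93, 0.92 and 0.91 for the levels. For Hmgb2 the genes were Rps6, a ribosomal protein gene (r = 0.90), Tmem69 (r = 0.90) and Mrps17, a gene of the mitochondrial ribosome (r = 0.86), with r of 0.88, 0.85 and 0.79 for the levels. Each r is over 19 arrays and was picked for its size. As a measure of RNA integrity, the difference between the 3' and 5' Gapdh control probe sets averaged 0.23 in WT, 0.11 in Ager_null, 0.24 in Myd88_null and 0.21 in Ager_Myd88_null. The same difference for the beta-actin control averaged 1.34, 1.33, 1.29 and 1.35 in these groups. Myd88_null replicate 4, the array that stood apart, had the highest Gapdh difference of all arrays, 0.44, and a beta-actin difference of 1.19. The deviations of S100a1 had an r of -0.41 with those of the Gapdh difference and 0.05 with those of the beta-actin difference. The part of RNA integrity in the ligand values was not tested.

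S100a10, which binds annexin A2 at the plasma membrane, had levels of 12.38, 12.53, 11.98, 11.52 and 12.23 in WT, 12.10, 12.19, 11.84 and 11.59 in Myd88_null and 11.61, 12.24, 12.44 and 12.71 in Ager_Myd88_null. In Ager_null they ran from 11.35 to 12.29 with a median of 12.00. The groups overlap throughout, and the highest and lowest liver differed by 2.58-fold. S100a10 differed from WT by -0.16 ± 0.21 (SE; limma adjusted p = 0.683) in Ager_null, by -0.20 ± 0.24 (SE; limma adjusted p = 0.667) in Myd88_null and by 0.12 ± 0.24 (SE; limma adjusted p = 0.930) in Ager_Myd88_null. For Ager_null against WT the 95% interval ran from -0.61 to 0.28. Leaving out 1 liver gave -0.32 to -0.04, -0.35 to -0.08 and -0.03 to 0.34 for these differences. A second S100a10 probe set, with r of 0.96 to the first, gave -0.04 ± 0.28 (SE) for Ager_null against WT.

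S100a4, known from fibroblasts and migrating cells, stayed between 2.13 and 2.85 on all 19 arrays. Its group means ran from 2.37 ± 0.18 (SD, n = 4) in Myd88_null to 2.59 ± 0.17 (SD, n = 4) in Ager_Myd88_null. At this level the array gives no usable difference.

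Hmgb2, the HMGB gene of dividing and immature cells, had levels of 7.29, 7.81, 6.47, 6.09 and 7.47 in WT, 7.42, 7.06, 7.61 and 5.04 in Myd88_null and 7.02, 6.75, 7.18 and 7.48 in Ager_Myd88_null. In Ager_null they ran from 6.61 to 7.16 with a median of 6.995. Myd88_null replicate 4, the array that stood apart from the rest, had the lowest level, and the groups overlap. Hmgb2 differed from WT by -0.07 ± 0.37 (SE; limma adjusted p = 0.925) in Ager_null, by -0.24 ± 0.41 (SE; limma adjusted p = 0.772) in Myd88_null and by 0.08 ± 0.41 (SE; limma adjusted p = 0.978) in Ager_Myd88_null. Without Myd88_null replicate 4 the difference for Myd88_null was 0.34. A second Hmgb2 probe set, with r of 0.82 to the first, had the opposite sign, 0.26 ± 0.34 (SE) in Ager_null and 0.34 ± 0.38 (SE) in Myd88_null, and neither probe set was called.

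A list of further S100 and HMGB genes, which also held S100pbp and genes of the HMGA and HMGN families, was mostly below the filter. Of its 18 genes 12 were measured and 4 passed the filter: S100a16, S100pbp, Hmgb3 and Hmgn1. S100a3, S100a5, S100a14, S100b, S100g, Hmgb4, Hmga2 and Hmgn3 stayed below log2 4 on every array. With limma 0 of the 4 were called in any comparison. At an unadjusted p under 0.05 there were 0 to 2 per comparison, where 8.57% to 27.2% of all tested genes passed. The smallest p-values were for S100pbp, a nuclear binding partner of an S100 protein, at -0.66 ± 0.17 (SE; limma adjusted p = 0.0645) for Ager_null against Myd88_null and 0.67 ± 0.18 (SE; limma adjusted p = 0.0844) for Myd88_null against WT. Without Myd88_null replicate 4, which had the highest S100pbp of its group, these were -0.42 and 0.43, and with the mean of all probe sets they were -0.23 and 0.20. Hmgb3 was at 0.54 ± 0.17 (SE; limma adjusted p = 0.0896) for Ager_Myd88_null against Ager_null.

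Of 18 receptor genes for S100 and HMGB proteins, 10 passed the filter and 2 were called. Fgfr1, a fibroblast growth factor receptor, had means of 4.44 ± 0.27 (SD, n = 5) in WT, 3.98 ± 0.26 (SD, n = 6) in Ager_null, 5.36 ± 0.57 (SD, n = 4) in Myd88_null and 5.25 ± 0.29 (SD, n = 4) in Ager_Myd88_null. It was 1.27 ± 0.22 (SE; limma adjusted p = 0.0073) higher in Ager_Myd88_null than in Ager_null, and in Ager_null it fell by 1.38 ± 0.22 (SE; limma adjusted p = 0.00255) relative to Myd88_null. Both calls for Fgfr1 held under all 31 alternatives run, with values of 0.70 to 1.54 and of -1.73 to -0.75, the smallest of each with the mean of all probe sets. The Ager_null mean of 3.98 lies below log2 4. Il1r1, the signalling receptor for IL-1, was -0.93 ± 0.23 (SE; limma adjusted p = 0.0466) in Ager_Myd88_null relative to Ager_null, a call that was lost in 18 of 31 alternatives, with an adjusted p up to 0.161. The median over the 10 receptors in that comparison was 0.03 beside 0.04 over all genes.

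Of 20 genes of RAGE and MyD88 signalling, 16 were tested. Apart from Myd88 itself, the call was Mapk14, the p38 alpha kinase. Its means were 9.20 ± 0.20 (SD, n = 5) in WT, 9.64 ± 0.19 (SD, n = 6) in Ager_null, 9.54 ± 0.25 (SD, n = 4) in Myd88_null and 9.10 ± 0.18 (SD, n = 4) in Ager_Myd88_null. For the probe set used, the mean of Mapk14 was higher in each single null than in WT and not in the double null. Its interaction was -0.89 ± 0.20 (SE; limma adjusted p = 0.0361) and its difference between Ager_Myd88_null and Ager_null was -0.54 ± 0.14 (SE; limma adjusted p = 0.0466). The interaction call of Mapk14 was lost in 11 of 30 alternatives and the other call in 16 of 31, with the S range as a block among them in both cases (adjusted p of 0.257 and 0.431). The interaction call was also lost with the replicate number as a block and with the mean of all probe sets, which gave -0.40. With that mean, Mapk14 in Myd88_null differed from WT by -0.0056, so the higher level in Myd88_null depends on the probe set. The median interaction over the 16 genes was -0.27 beside -0.02 over all genes.

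Of 8 genes of RAGE shedding, other RAGE ligands and their metabolism, 7 were tested and 1 was called. Glo1, the glyoxalase that removes the precursor of advanced glycation end products, had means of 13.01 ± 0.13 (SD, n = 5) in WT, 13.84 ± 0.10 (SD, n = 6) in Ager_null, 13.16 ± 0.18 (SD, n = 4) in Myd88_null and 13.78 ± 0.13 (SD, n = 4) in Ager_Myd88_null. All livers without Ager lay above all livers with it. Glo1 rose by 0.83 ± 0.09 (SE; limma adjusted p = 0.000219) in Ager_null and by 0.77 ± 0.10 (SE; limma adjusted p = 0.000718) in Ager_Myd88_null relative to WT. Relative to Myd88_null, Glo1 was 0.62 ± 0.11 (SE; limma adjusted p = 0.0254) higher in Ager_Myd88_null and 0.68 ± 0.10 (SE; limma adjusted p = 0.00172) higher in Ager_null. The call between Ager_Myd88_null and Myd88_null was lost in 8 of 31 alternatives, and the other 3 held in all 31. Glo1 and Ager lie on the same chromosome, 17, and the part of sequence linked to the Ager allele was not tested.

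Of 22 genes for protein partners of S100 and HMGB proteins, 17 were tested and 0 were called by limma in any of the 7 comparisons. At an unadjusted p under 0.05, 1 to 6 passed per comparison, where 8.57% to 27.2% of all tested genes did. Cybb, the catalytic subunit of the phagocyte NADPH oxidase, was 0.79 ± 0.20 (SE; limma adjusted p = 0.0626) higher in Ager_null than in Myd88_null. Apex1, a DNA repair enzyme that binds HMGB1, was 0.43 ± 0.11 (SE; limma adjusted p = 0.0645) higher in the same comparison.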

How the data were processed

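Values were deposited by the authors on a log2 scale, 1 per probe set, and used as they are; the submitters' processing notes name GCRMA 2.16, which corrects for background with probe sequence and normalizes across arrays (array genome build: not given in the sources used here). Of 45101 probe sets, 64 controls, 932 with several symbols and 9160 with none were left out. Genes over log2 4 on at least 4 arrays were tested with limma 3.58.1 in R 4.3.3 (4 groups in 1 fit, two-sided, Benjamini-Hochberg per comparison). The number of arrays limits the precision. Arrays were simulated with 200 changed genes among 8515 and noise drawn separately for each gene. On them, log2 changes of 1 were recovered for 83.0% of genes for Ager_null against WT and 50.6% for the interaction. Effects that an array adds to many genes were not simulated, and the shares are averages over genes. They do not give the chance of a call for S100a8 or S100a9, whose SEs for Ager_null against WT were 0.48 and 0.49. Groups and replicate numbers come from the titles, and each array was taken as 1 mouse, as the labels' protocols describe RNA per mouse. No array looked like a repeat of another (root mean square difference within groups of 0.328 or more). Same-numbered Ager_null and Myd88_null arrays deviated together in all 4 pairs (r 0.11 to 0.47). Replicate numbers run within each group, so these r values do not show that mice were paired. The main fit used no pairing, and a block on the replicate number was run as an alternative. The member genes and lists were chosen with earlier results of these data known.

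Genes named are all members, Ager and Myd88, the 3 most correlated named genes per tested member, and the called genes of each pathway list or otherwise up to 4 with the smallest p. Cell type marker lists fall outside this rule: their called genes (Fpr2, Igha and Col1a2) and the neutrophil genes described were chosen after their values were seen. Promoters and gene order come from RefSeq (GRCm38.p6). Alternatives covered normalization, filter, probe set choice, array weights, an intensity trend, blocks and leaving out each replicate.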

Additional observations from a re-analysis of the deposited data

Results flagged for a closer look

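Over the members and named list genes, 88 groups of 4 to 6 livers were checked for a single liver far from the others, and 3 groups (3.41%) held one, where chance gives about 1 in 20. S100a9 in Ager_Myd88_null replicate 4 was 9.81, below the other 3 livers of that group at 9.91 to 9.92, in a group whose whole range was 0.12. S100pbp in Myd88_null replicate 4 was 6.97, above a group median of 6.03, on the array that stood apart from the rest. Glo1 in Ager_null replicate 1 was 13.7, the lowest of its group, whose mean was 13.8.

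Mapk14 was called for the interaction, the test of whether the difference between livers without and with Myd88 was itself different without Ager, at -0.89 (log2; limma adjusted p = 0.0361). This call was lost in 11 of 30 alternatives, among them the S range as a block (limma adjusted p = 0.257) and the replicate number as a block. The mean of all probe sets, which gave -0.40, was another of them.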

How the results depend on the processing

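Values of the 7 tested ligand genes were recomputed under 31 alternatives, 19 that leave out 1 liver and 12 others. Of 1113 values, 1043 kept their direction and 70 turned, 54 of these through a shift of at most 1 SE, and 6 became called. The count of called ligand genes stayed at 0 except as follows. With array weights it was 1 (S100a1) for Ager_Myd88_null minus Ager_null and 2 (S100a1 and S100a13) for the interaction. In that setting 7.27% and 16.2% of all tested genes were called in these comparisons. Leaving out 1 replicate gave 0 to 1 for Ager_Myd88_null minus Myd88_null and 0 to 2 for the interaction, the higher count in each case without Myd88_null replicate 1, and 0 to 0 elsewhere. Without that replicate 5.24% and 20.4% of all tested genes were called in these comparisons. The cause was not tested.

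Counts over all tested genes moved more. The interaction had 205 genes called, 0 with the S range as a block or without Myd88_null replicate 3, 1382 with array weights and 1739 without Myd88_null replicate 1. For Ager_null minus WT 107 became 33 with only the 2 groups compared and 711 with array weights; for Myd88_null minus WT 34 became 7 and 785; for Ager_null minus Myd88_null 107 became 28 and 461. For Ager_Myd88_null minus Ager_null 208 became 91 with no filter and 619 with array weights, and for Ager_Myd88_null minus Myd88_null 13 became 3 with the replicate block and 293 with array weights. With the replicate block 0 ligand genes were called in any comparison, and genes called were 127, 24, 46, 138, 3, 155 and 37 in the order of the report. Leaving out 1 liver gave 16 (without WT replicate 5) to 235 (WT replicate 3) for Ager_null minus WT, 10 (Myd88_null replicate 4) to 987 (Myd88_null replicate 1) for Myd88_null minus WT and 18 to 29 for Ager_Myd88_null minus WT. It gave 18 (without Ager_Myd88_null replicate 3) to 141 for Ager_Myd88_null minus Ager_null, 2 (Myd88_null replicate 4) to 446 (Myd88_null replicate 1) for Ager_Myd88_null minus Myd88_null and 30 (Myd88_null replicate 4) to 179 (Ager_null replicate 6) for Ager_null minus Myd88_null. Between same-numbered arrays, r ran from -0.30 to 0.30 in the comparisons other than Ager_null minus Myd88_null. Signal near background limits S100a4 and S100a6.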

Other observations

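The probe sets that list Hmgb1 or S100a11 together with other symbols cannot be given to a gene and are given here as probe sets only. There are 5 that list Hmgb1, each beside Gm21596. The one with the narrowest range had means of 10.75 ± 0.11 (SD, n = 5) in WT, 10.91 ± 0.10 (SD, n = 6) in Ager_null, 10.92 ± 0.07 (SD, n = 4) in Myd88_null and 10.74 ± 0.10 (SD, n = 4) in Ager_Myd88_null, within 10.65 to 11.01 over all arrays. The one with the widest range, which also lists 4932431P20Rik, ran from 8.67 to 10.08. The probe sets differed in the order of the groups. Beside the first, their WT means were 11.13, 11.19, 11.28 and, for the widest, 9.55. In the same order the means were 11.08, 11.29, 11.25 and 9.21 in Ager_null and 11.29, 11.25, 11.32 and 9.42 in Myd88_null. In Ager_Myd88_null they were 11.18, 11.22, 11.25 and 9.29. The probe set that lists S100a11 with Gm12854 and S100a11-ps had means of 7.29 ± 0.50 (SD, n = 5) in WT, 7.15 ± 0.30 (SD, n = 6) in Ager_null, 7.23 ± 0.27 (SD, n = 4) in Myd88_null and 7.55 ± 0.34 (SD, n = 4) in Ager_Myd88_null, with all groups overlapping.

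Igha, the constant region of IgA and a B cell marker, was called in each null group against WT. It rose by 1.35 ± 0.28 (SE; limma adjusted p = 0.0326) in Ager_null, 2.04 ± 0.31 (SE; limma adjusted p = 0.00368) in Myd88_null and 2.17 ± 0.31 (SE; limma adjusted p = 0.00137) in Ager_Myd88_null. Of the 3 tested B cell markers, 1 was higher than WT in Ager_null (median -0.05) and 2 in each of Myd88_null and Ager_Myd88_null. The Igha WT mean of 3.95 was just below the filter of log2 4. The Igha call for Ager_null was lost in 10 of 31 alternatives, that for Myd88_null in 1 of 31 and that for Ager_Myd88_null in 0 of 31.

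Col1a2, a chain of type I collagen and a marker of stellate cells and fibroblasts, had means of 3.60 in WT, 4.32 in Ager_null, 3.51 in Myd88_null and 3.67 in Ager_Myd88_null, so it was over log2 4 on average in Ager_null only. Its highest levels in WT, Myd88_null and Ager_Myd88_null were 3.79, 3.74 and 3.81, so Col1a2 passed the filter through Ager_null alone. The calls below set that group against levels under the filter and are no independent support for a difference. With values under log2 4 set to 4, Col1a2 in Ager_null differed from WT by 0.34 (limma adjusted p = 0.113). The values that follow are without that floor. It was 0.72 ± 0.15 (SE; limma adjusted p = 0.0357) higher in Ager_null than in WT and 0.80 ± 0.16 (SE; limma adjusted p = 0.0218) higher than in Myd88_null, and -0.64 ± 0.16 (SE; limma adjusted p = 0.0475) in Ager_Myd88_null relative to Ager_null. These calls were lost in 10, 4 and 21 of 29 alternatives. Of 11 tested markers of these cells, no other was called.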
